A study of Mus musculus with 12 samples.

Results

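The miR-106b~25 cluster is a group of 3 miRNAs, miR-106b, miR-93 and miR-25, that are encoded together within the gene Mcm7. Its members were taken as the array names mmu-miR-106b, mmu-miR-93 and mmu-miR-25, 3 of the 611 mouse miRNA names on the array, and the prefix is left out below. Mature miRNAs were measured on Agilent 1-colour arrays in embryonic fibroblasts of C57BL/6 mice that lacked ATF4 (ATF4KO, here KO) or were wild type for it (ATF4WT, here WT). Each genotype was left untreated or received tunicamycin at 2 ug/mL for 12 h or 24 h, with 2 arrays for each of the 6 groups. The groups were KO at 12 h and 24 h with untreated KO, and WT at 12 h and 24 h with untreated WT. All cells grew in medium with serum and 2-mercaptoethanol, and the series describes 2 independent experiments at each time. The allele and the number of cell lines behind each genotype are not given in the sources used here. The question put by the series is which miRNAs respond to 12 h of tunicamycin through ATF4.

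Tunicamycin blocks N-linked glycosylation of proteins in the endoplasmic reticulum (ER) and so causes ER stress. ATF4 is a transcription factor whose translation is raised in ER stress, downstream of the kinase PERK. The 3 miRNAs are cut from 1 primary transcript that is made with Mcm7, which encodes a subunit of the replicative helicase and is driven by E2F factors in dividing cells. Each mature miRNA then has its own processing and turnover. Known targets of miR-106b and miR-93 include the cell cycle inhibitor p21 (Cdkn1a), and those of miR-25 include the pro-apoptotic protein Bim (Bcl2l11).

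The mature sequences are shown because their seeds, which pair with target mRNAs, divide the cluster into 2 families. They are given 5′ to 3′ from RefSeq (GRCm38.p6), with the seed, bases 2 to 8, in capitals. All 3 array names matched an entry; the arm was taken from the array's older names, in which the strand without a star is the main one, since probe sequences were not used here.
miR-106b (5p arm, chr5:138165787-138165807, minus strand): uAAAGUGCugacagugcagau
miR-93 (5p arm, chr5:138165574-138165596, minus strand): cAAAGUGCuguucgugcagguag
miR-25 (3p arm, chr5:138165332-138165353, minus strand): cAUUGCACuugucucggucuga
The first pair share the seed AAAGUGC and have the same base at 16 of 21 positions counted from the 5′ end. miR-25 carries AUUGCAC and matches miR-106b at 5 of 21 positions. The 3 hairpins lie in the order Mir106b, Mir93, Mir25 along the direction of transcription and together span 498 bases, at chr5:138165321-138165818. All of them lie inside Mcm7 (chr5:138164583-138172111) and on its strand.

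The RefSeq promoter window of Mcm7 at chr5:138171834-138172133 (GRCm38.p6, minus strand) is shown because the 3 miRNAs share this host gene. Capitals mark its 1 match to the E2F-type motif GCGGGAA, searched on both strands (reverse complement TTCCCGC).
Mcm7 promoter: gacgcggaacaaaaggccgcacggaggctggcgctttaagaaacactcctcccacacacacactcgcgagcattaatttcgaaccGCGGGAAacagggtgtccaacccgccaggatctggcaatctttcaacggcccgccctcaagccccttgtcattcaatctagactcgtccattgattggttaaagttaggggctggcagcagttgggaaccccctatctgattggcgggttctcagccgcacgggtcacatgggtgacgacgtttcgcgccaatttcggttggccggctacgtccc
That motif was found in 4.60% of the 32851 RefSeq promoter windows of this length. A further Mcm7 window, at chr5:138171217-138171516, also held 1 match. Neither window held the ATF4-type motif TGATGNAAT (reverse complement ATTNCATCA), present in 0.965% of all windows, or the E-box CACGTG, present in 7.15%. These are matches of letters only, and Mcm7 mRNA was not measured on these arrays.

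The test covered 145 mouse miRNAs, all 3 members among them, and 92 to 164 names exceeded background clearly on a given array. Of 8 miRNAs typical of fibroblasts, 6 or 7 were well above background on each array. Of the epithelial (7 names) and neural (5 names) markers 0 were, and of the blood and endothelial, muscle and pluripotent markers at most 1 on any array. One slide carried the 4 untreated arrays and the other the 8 arrays with tunicamycin, which means that the effects of slide and treatment cannot be told apart. On both slides KO arrays were in row 2 and WT arrays in row 1, and these cannot be told apart either. The signal used for scaling ran from 203.5 to 791.2 arbitrary units (a.u.) and was highest on the untreated KO arrays. The array holds no probe for Atf4 mRNA to check the genotype.

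Each member had 2 probes of 10 spots, and all 3 were well above background on all 12 arrays with 0 saturated spots. Levels are percentages of a scaling value, the 75th percentile on the same array of those 82 miRNAs that all arrays measured well above background, and beside them as unscaled summed signal. miR-106b stood at 37.7 and 38.1% in untreated KO cells, 42.1 and 43.5% at 12 h and 45.8 and 33.5% at 24 h of tunicamycin. In WT cells it stood at 57.2 and 56.7% untreated, 32.3 and 26.4% at 12 h and 35.1 and 35.2% at 24 h. Thus the untreated WT arrays were above all 10 others, and the lowest level was on a WT array at 12 h. Its unscaled signal was 267.5 and 301.2 a.u. in untreated KO cells, 216.8 and 182.0 a.u. at 12 h and 93.1 and 189.6 a.u. at 24 h. The WT signal was 330.2 and 315.2 a.u. untreated, 139.2 and 150.3 a.u. at 12 h and 101.1 and 124.5 a.u. at 24 h. Before scaling, therefore, every tunicamycin array of either genotype was below the untreated arrays of that genotype. The share of all tested miRNAs with this unscaled pattern was not counted. Their median unscaled log2 difference from untreated cells was also negative. It was -0.58 at 12 h and -0.77 at 24 h in KO cells, and -0.51 and -0.94 in WT cells.

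miR-93 stood at 20.4 and 19.2% in untreated KO cells, 12.6 and 16.0% at 12 h and 15.6 and 15.7% at 24 h. In WT cells it stood at 27.5 and 24.7% untreated, 16.1 and 13.1% at 12 h and 16.4 and 17.5% at 24 h. On this scale the tunicamycin arrays were below the untreated arrays in both genotypes. Unscaled, miR-93 gave 145.0 and 151.6 a.u. in untreated KO cells, against 158.5 and 137.4 a.u. in untreated WT cells. At 12 h it gave 65.2 and 67.0 a.u. in KO cells and 69.6 and 74.6 a.u. in WT cells, and at 24 h 31.8 and 89.1 a.u. in KO cells and 47.2 and 62.1 a.u. in WT cells. The KO and WT ranges of the unscaled signal overlapped in the untreated cells and at 24 h, but not at 12 h. There the nearest arrays gave 67.0 a.u. (KO) and 69.6 a.u. (WT), and the unscaled log2 difference of -0.12 did not pass the test. The share of all tested miRNAs without overlap was not counted for the unscaled signal.

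miR-25 stood at 26.1 and 29.4% in untreated KO cells, 31.5 and 29.6% at 12 h and 35.8 and 29.1% at 24 h. In WT cells it stood at 39.2 and 41.5% untreated, 28.3 and 20.7% at 12 h and 30.5 and 29.1% at 24 h. As for miR-106b, both untreated WT arrays were above all others. Its unscaled signal was 185.2 and 232.9 a.u. in untreated KO cells, 162.5 and 123.8 a.u. at 12 h and 72.9 and 164.6 a.u. at 24 h. The WT signal was 226.4 and 230.4 a.u. untreated, 122.0 and 117.8 a.u. at 12 h and 87.8 and 103.0 a.u. at 24 h. The 2 KO arrays at 24 h differed from each other more than any other pair of replicates in all 3 unscaled signals.

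**Figure D1:**
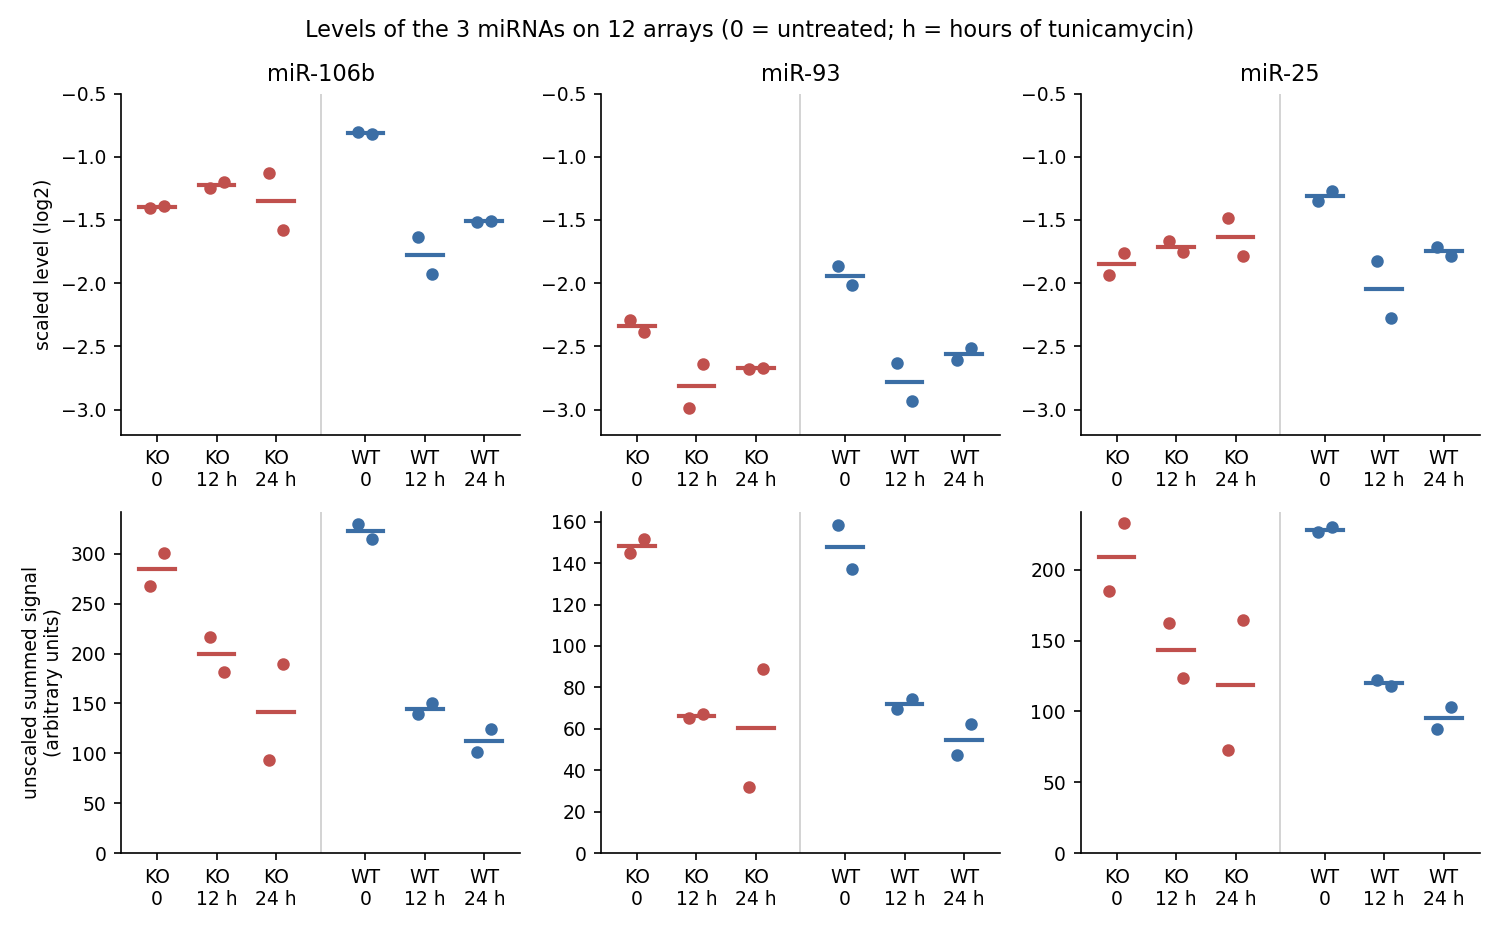
Levels of miR-106b, miR-93 and miR-25 on each array (points) with the mean of each group (bars), KO left of WT, as scaled log2 level (upper row) and as unscaled summed signal in arbitrary units from 0 (lower row). The untreated WT arrays of miR-106b and miR-25 sit above the other scaled levels, while the unscaled signals are lower with tunicamycin in both genotypes.

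In WT cells all 3 miRNAs were lower after 12 h of tunicamycin than in untreated cells. miR-106b fell by 0.97 ± 0.16 on the log2 scale (SE, n = 2 arrays a group; adjusted p = 0.00552), to 0.512 of its untreated level. miR-93 fell by 0.84 ± 0.15 (adjusted p = 0.00663), to 0.558 of it, and miR-25 by 0.74 ± 0.17 (adjusted p = 0.0163), to 0.599. These p-values are limma's, with Benjamini-Hochberg adjustment over the 145 miRNAs, and in none of the 3 did the groups overlap. Of all tested miRNAs 30.3% were lower at this threshold and 53.8% were lower without overlap, and the median difference was -0.32. Relative to that median, miR-106b differed by -0.65, miR-93 by -0.53 and miR-25 by -0.42. In a bulk sample, fewer cells of a type and less RNA per cell cannot be told apart.

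The count of 3 in WT cells at 12 h depended on the scaling, the background correction, the measure and the arrays fitted. It was 0 with median scaling, with quantile normalization, with the percentile taken over all miRNAs, with both normexp corrections, with the deposited table and with the software's total gene signal. It was 1 with no scaling or with only the groups compared. With median scaling the differences were -0.67 for miR-106b, -0.55 for miR-93 and -0.45 for miR-25, and with no scaling -1.16, -1.03 and -0.93. The direction of miR-106b and miR-25 held in all 29 alternatives. That of miR-93 turned with the deposited table (0.34) and the total gene signal (0.56), which are described further on.

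At 24 h in WT cells 2 of the 3 miRNAs passed the test. miR-106b fell by 0.70 ± 0.16 (adjusted p = 0.0249) and miR-93 by 0.62 ± 0.15 (adjusted p = 0.0282). miR-25 differed by -0.44 ± 0.17 (adjusted p = 0.120), with a 95% confidence interval of -0.84 to -0.04 before adjustment. Here 15.2% of all tested miRNAs were lower, and the members stood -0.53, -0.45 and -0.27 from the median of all tested. The count was 0 without either WT array at 24 h or either untreated WT array, and 1 without either untreated KO array. With the scan as a block it was 1, where miR-93 no longer passed. With no scaling it was 3, and with median scaling 0. With normexp on all spots miR-93 (0.44) and miR-25 (0.27) turned in direction, but both were below the median of all tested miRNAs, which was then 0.75.

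In KO cells 0 of the 3 miRNAs passed the test at 12 h or at 24 h. miR-106b differed by 0.18 ± 0.16 at 12 h (adjusted p = 0.615) and 0.05 ± 0.16 at 24 h (adjusted p = 0.875). miR-25 differed by 0.14 ± 0.17 at 12 h (adjusted p = 0.788) and 0.22 ± 0.17 at 24 h (adjusted p = 0.494). The values of miR-93 were negative at both times, at -0.47 ± 0.15 (adjusted p = 0.190) and -0.34 ± 0.15 (adjusted p = 0.273), and its untreated and tunicamycin arrays did not overlap. Few miRNAs of any kind passed in KO cells by limma: 0.69% were lower and 0% higher at 12 h, and 0.69% lower and 1.38% higher at 24 h. At an unadjusted p below 0.05 there were 21 miRNAs at 12 h, miR-93 among them, and 26 at 24 h. Arrays lower with tunicamycin without overlap were found for 28.3% of miRNAs at 12 h and 15.9% at 24 h.

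The near-zero KO differences of miR-106b and miR-25 rested on the scaling. With no scaling they were -0.52 and -0.55 at 12 h and -1.10 and -0.92 at 24 h, when the median of all tested miRNAs was -0.58 and -0.77. With no scaling miR-106b (adjusted p = 0.0322) and miR-93 (-1.48, adjusted p = 0.0324) passed at 24 h. Against the median of all tested miRNAs on the main scale, miR-106b stood 0.12 away at 12 h and -0.15 at 24 h, and miR-25 0.08 and 0.02. miR-93 stood -0.53 away at both times. In KO cells, then, miR-106b and miR-25 lay near the median of the array's miRNAs and miR-93 below it.

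**Figure D2:**
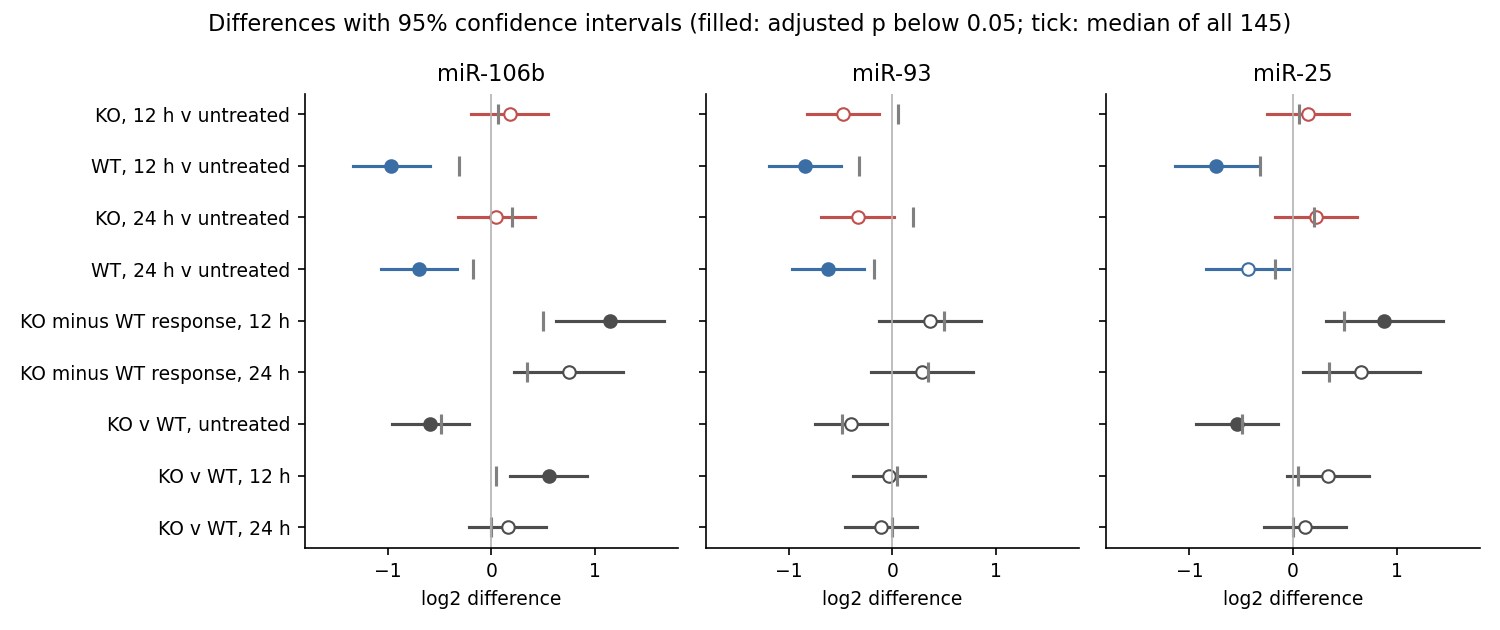
Log2 differences of the 3 miRNAs in 9 comparisons with 95% confidence intervals, filled where the adjusted p was below 0.05, with a grey tick at the median of all 145 tested miRNAs. In WT cells at 12 h the 3 differences lie between -0.97 and -0.74, and in KO cells between -0.47 and 0.18.

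The difference between the KO and the WT response was tested itself. At 12 h it was 1.14 ± 0.22 for miR-106b (adjusted p = 0.0151) and 0.88 ± 0.24 for miR-25 (adjusted p = 0.0383), the KO response being the higher. These values hold both a lower untreated level in KO than WT cells (-0.59 and -0.54) and the KO minus WT difference at 12 h (0.55 and 0.34). The 0.34 of miR-25 did not pass the test. For miR-93 it was 0.37 ± 0.21 (adjusted p = 0.295), with an interval from -0.12 to 0.86. Of all tested miRNAs 20.7% had a higher response in KO cells, and the median was 0.49. Relative to it, miR-106b stood 0.65 higher, miR-25 0.39 higher and miR-93 at -0.13. The rank of miR-106b was 126 of 145 from the lowest, that of miR-25 106 and that of miR-93 62.

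The 2 calls at 12 h did not hold under all processing. Neither passed with median scaling, no scaling, quantile normalization, the percentile over all miRNAs, normexp, the total gene signal, the deposited table or no filter on dim miRNAs. With median scaling the difference was 0.65 for miR-106b (adjusted p = 0.616), 0.38 for miR-25 (adjusted p = 0.944) and -0.13 for miR-93. With normexp on all spots the value of miR-25 turned to -0.09, when the median of all tested miRNAs was -0.73. The count was 0 without the KO array of replicate 2 at 12 h or without the untreated KO array of replicate 1. It was 1 without each of 7 other arrays, namely KO at 12 h replicate 1, untreated KO replicate 2, WT at 12 h replicate 2, and both arrays of WT at 24 h and of untreated WT.

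At 24 h 0 of the 3 passed. The difference between responses was 0.75 ± 0.22 for miR-106b (adjusted p = 0.0772), 0.66 ± 0.24 for miR-25 (adjusted p = 0.130) and 0.29 ± 0.21 for miR-93 (adjusted p = 0.459). The share of all tested miRNAs that were higher was 7.59%. Without the KO array of replicate 2 at 24 h, 1 member passed. All 3 values turned with normexp on all spots, to -0.27 for miR-106b, -0.56 for miR-25 and -0.95 for miR-93. The median of all tested miRNAs was then -1.12, below all 3. They also turned with the percentile over all miRNAs, to -0.31, -0.40 and -0.77, when that median was -0.52. That of miR-93 turned in 7 of the 29 alternatives.

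**Figure D3:**
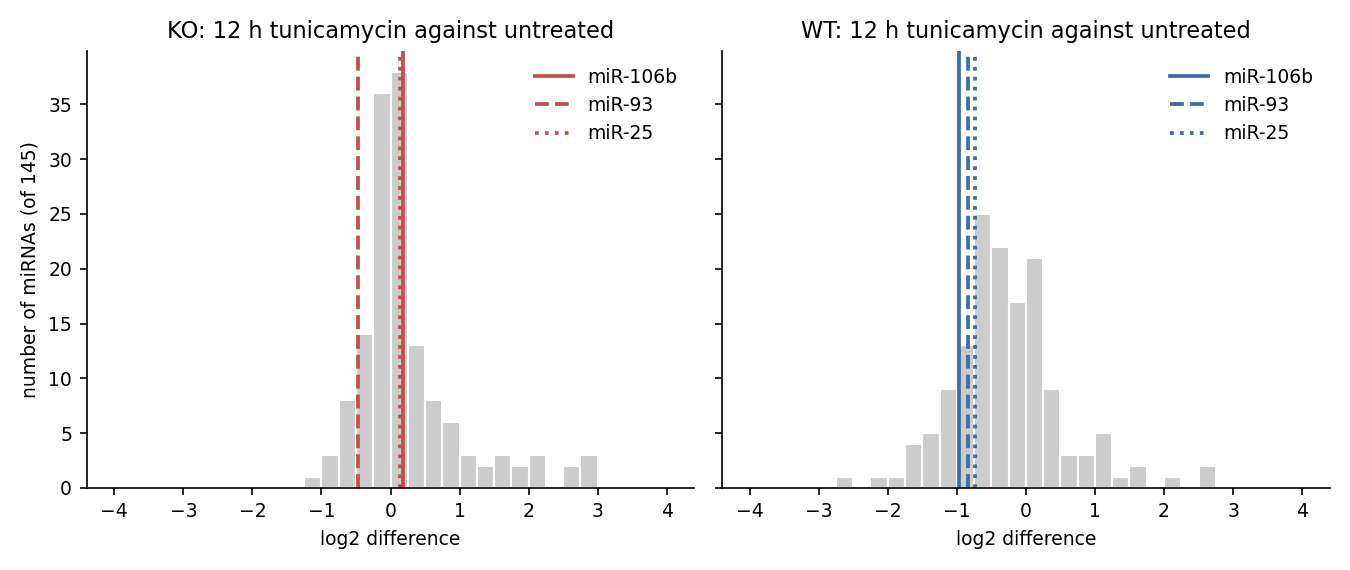
Log2 differences of all 145 tested miRNAs after 12 h of tunicamycin against untreated cells, KO left and WT right, as counts per bin of 0.25 with lines at the 3 members. In WT cells the lines lie left of the median of -0.32, and in KO cells miR-93 lies left of the median of 0.06 while miR-106b and miR-25 lie close to it.

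Compared directly, untreated KO cells had less miR-106b and miR-25 than untreated WT cells. miR-106b was lower by a log2 difference of -0.59 ± 0.16 (adjusted p = 0.0258) and miR-25 by -0.54 ± 0.17 (adjusted p = 0.0451). miR-93 differed by -0.40 ± 0.15 (adjusted p = 0.0737). Within the first scan the differences were -0.60, -0.59 and -0.43, and within the second -0.58, -0.49 and -0.37, in the order miR-106b, miR-25, miR-93. The members did not stand apart from other miRNAs here, since 25.5% of all tested miRNAs were lower and the median difference was -0.49. The count was 0 without any 1 of the 4 untreated arrays, and with no scaling, where the differences were -0.18, -0.14 and 0.01. With normexp on all spots they turned, to 0.05, 0.26 and 0.44, when the median of all tested miRNAs was 0.67.

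At 12 h of tunicamycin miR-106b was higher in KO than in WT cells by 0.55 ± 0.16 (adjusted p = 0.0419), where 14.5% of all tested miRNAs were higher. The KO minus WT difference was 0.38 within the scan of replicate 1 and 0.72 within that of replicate 2, and the call was lost with the scan as a block. It was also lost without any 1 of 9 arrays, and was kept without WT at 12 h replicate 1 or either KO array at 24 h. miR-25 differed by 0.34 ± 0.17 (adjusted p = 0.213), with 0.16 and 0.52 within the scans. miR-93 differed by -0.03 ± 0.15 (adjusted p = 1), and its scans pointed opposite ways, at -0.35 and 0.29. At 24 h 0 of 3 passed, with differences of 0.16 for miR-106b, 0.12 for miR-25 and -0.11 for miR-93, while 15.2% of all tested miRNAs passed in either direction.

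Between 24 h and 12 h 0 of the 3 passed in either genotype. In KO cells the 24 h level differed from the 12 h level by -0.13 for miR-106b, 0.08 for miR-25 and 0.14 for miR-93. In WT cells all 3 differences were positive, at 0.27, 0.30 and 0.22, in the order miR-106b, miR-25, miR-93, and both 24 h arrays were above both 12 h arrays. Of all tested miRNAs 20.7% were higher without overlap on these scaled levels. With no scaling the 3 WT differences turned, to -0.37, -0.33 and -0.41, and both 24 h arrays were below both 12 h arrays. The median of all tested miRNAs was then -0.41, and the share lower without overlap was not counted for the unscaled signal. By limma 0 of 145 miRNAs passed in either genotype, with 10 at an unadjusted p below 0.05 in KO cells and 5 in WT cells.

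Ordered by group mean, miR-106b was lowest in WT at 12 h (-1.78 ± 0.21 on the log2 scale, SD, n = 2) and next in WT at 24 h (-1.51 ± 0.003). It went on through untreated KO (-1.40 ± 0.01), KO at 24 h (-1.35 ± 0.32) and KO at 12 h (-1.22 ± 0.04) to untreated WT (-0.81 ± 0.01). KO at 24 h overlapped with its neighbours on both sides. miR-25 began with WT at 12 h (-2.05 ± 0.32) and ended with KO at 24 h (-1.63 ± 0.21) and untreated WT (-1.31 ± 0.06), and each of the 4 groups between -1.85 and -1.63 overlapped with its neighbours among them in the order. miR-93 was lowest in KO at 12 h (-2.81 ± 0.24) and WT at 12 h (-2.78 ± 0.21), which overlapped. It was highest in untreated KO (-2.34 ± 0.07) and untreated WT (-1.94 ± 0.11). For all 3 both untreated WT arrays were above every other array. How many of all tested miRNAs had this pattern was not counted, and 53.8% were lower without overlap in WT cells at 12 h.

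The ratio of one member to another within an array does not depend on a common scaling factor, and its change shows whether members of 1 transcript moved together. The log2 ratio of miR-106b to miR-93, measured from the untreated mean of the same genotype, was 0.80 and 0.50 in KO cells at 12 h and 0.61 and 0.15 at 24 h. In WT cells it was -0.13 and -0.12 at 12 h and -0.03 and -0.13 at 24 h. All 4 KO tunicamycin arrays were thus above their untreated mean and all 4 WT arrays below theirs. The untreated arrays lay within 0.05 (KO) and 0.07 (WT) of it, and the WT arrays at 24 h overlapped with the untreated WT ones. The mean change was 0.65 in KO cells and -0.12 in WT cells at 12 h, and 0.38 in KO cells and -0.08 in WT cells at 24 h. The difference of 0.77 at 12 h and 0.46 at 24 h was not tested. How many other pairs of tested miRNAs split in this way was not counted.

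The ratio of miR-93 to miR-25 changed by -0.83 and -0.40 in KO cells at 12 h and by -0.71 and -0.40 at 24 h. The WT changes were -0.18 and -0.03 at 12 h and -0.27 and -0.10 at 24 h. The ratio of miR-106b to miR-25 ranged from -0.25 to 0.10 on the KO tunicamycin arrays and from -0.31 to -0.15 on the WT ones. These ratios were not independent of the measure: with the total gene signal the 12 h change of miR-106b over miR-93 was -1.32 in KO cells and -1.48 in WT cells. With normexp fitted without outlying spots it was 0.20 in KO cells and -0.25 in WT cells. At 24 h it was -2.08 in KO cells and -2.89 in WT cells with the total gene signal, and -0.058 in KO cells and -0.29 in WT cells with that normexp.

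**Figure D4:**
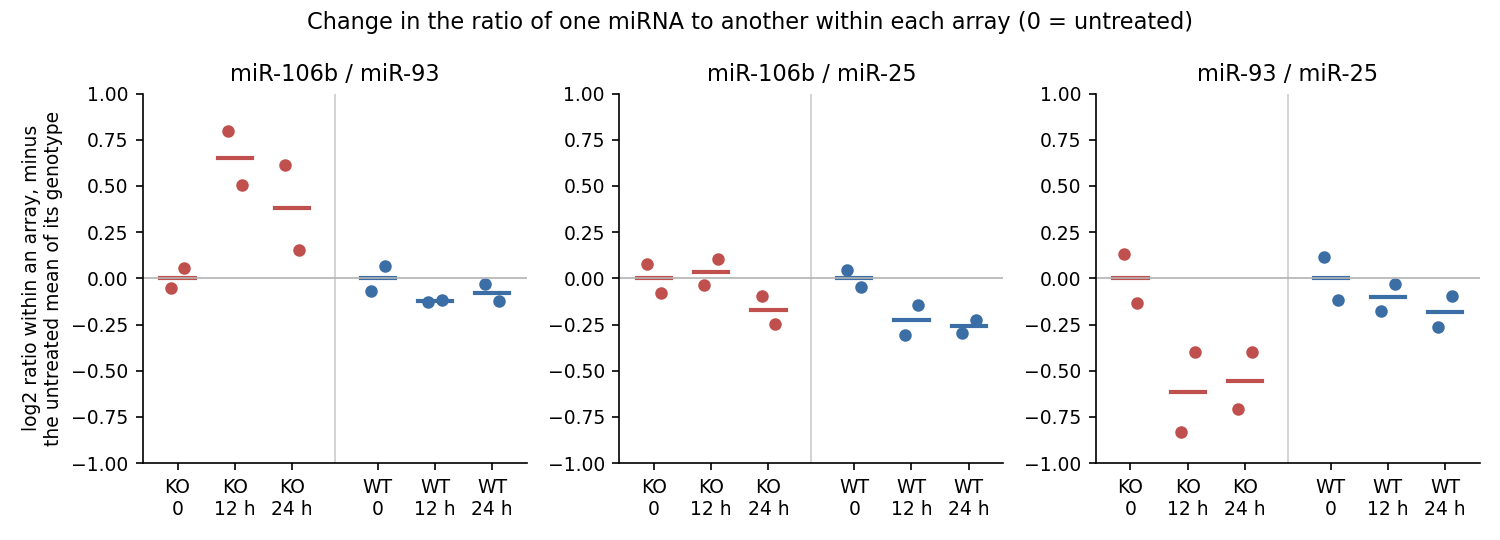
Change in the log2 ratio of one member to another within each array, relative to the untreated mean of the same genotype, KO left of WT (points, arrays; bars, group means). For miR-106b over miR-93 the 4 KO tunicamycin arrays lie between 0.15 and 0.80 and the 4 WT tunicamycin arrays between -0.13 and -0.03.

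miR-93 was the member whose value depended most on which of the software's own measures was read. Agilent's software gives a total signal per probe and a total gene signal per miRNA, and the deposited table equals the log2 of the total gene signal. For miR-106b and miR-25 the total gene signal equalled the sum of the 2 total probe signals on all 12 arrays within 0.001 of the sum. For miR-93 it did so on 5 arrays, the 4 untreated ones and WT at 12 h replicate 1. On the other 7, all with tunicamycin, it was 3.70 to 7.55 times that sum. In KO cells at 12 h it was 179.6 and 175.3 a.u. where the probes summed to 43.2 and 47.4 a.u., and at 24 h 89.2 and 434.0 a.u. where they summed to 21.1 and 60.0 a.u. In WT cells at 12 h it was 46.2 and 334.7 a.u. where the probes summed to 46.2 and 51.4 a.u., so the 2 replicates of 1 group fell on either side.

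The dimmer miR-93 probe separated the 2 kinds of array. Its total probe signal was 3.45 to 9.90 a.u., or 3.25 to 5.31 times its error, on the 5 arrays. It was 0.34 to 3.20 a.u., or 0.252 to 2.27 times its error, on the 7. The brighter probe was well above background on all 12 arrays and the dimmer probe on 3. In the tested measure the change of miR-93 rested on the brighter probe, which differed by -0.43 in KO cells and -0.81 in WT cells at 12 h. The deposited table was fitted unscaled, unlike the tested measure. By it miR-93 differed by 0.84 in KO cells and 0.34 in WT cells at 12 h, and by 0.98 in KO cells and 1.37 in WT cells at 24 h. None of these differences passed the test. The median of all tested miRNAs was then -0.53 in KO cells and -0.38 in WT cells at 12 h, and -0.76 and -0.84 at 24 h. Total gene signals over 2 times the probe sum were not special to miR-93, since 24.8 to 36.1% of detected mouse miRNAs had one on each array. How the software forms this value is not given in the sources used here.

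**Figure D5:**
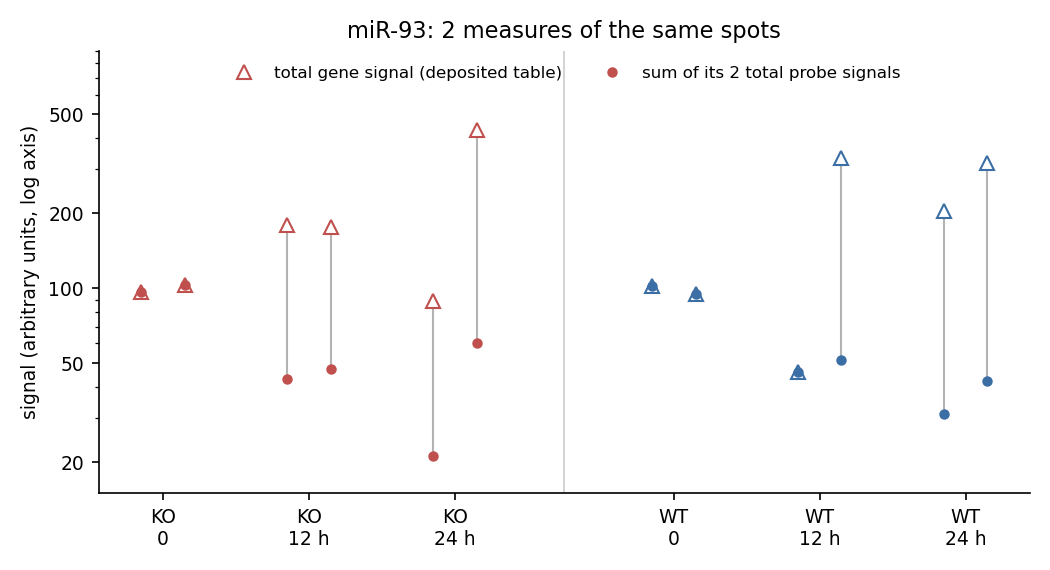
Signal of miR-93 on each array, KO left of WT, as the sum of its 2 total probe signals (filled) and as the total gene signal behind the deposited table (triangles), in arbitrary units on a log axis. They coincide on the 4 untreated arrays and WT at 12 h replicate 1, and the total gene signal is 3.70 to 7.55 times the sum on the other 7 arrays.

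Both probes of miR-106b were well above background on all 12 arrays and gave alike changes from untreated cells at 12 h. These were 0.16 and 0.21 in KO cells and -0.93 and -1.09 in WT cells, the brighter probe first. In KO cells at 24 h the 2 probes differed in sign, at 0.08 and -0.06. For KO against WT cells at 12 h they gave 0.48 and 0.77. For miR-25 the brighter probe differed by 0.20 in KO cells and -0.70 in WT cells at 12 h. Its dimmer probe was well above background on 7 arrays. On 12 h arrays of both genotypes it lay at the floor set on the scaled signal, so its changes are not given. The passenger strands miR-106b* and miR-93* were on the array and well above background on 0 of 12 arrays, so no change is given for them, and miR-25* was not analysed here.

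Across the 12 arrays, which share their slides and scaling, the scaled level of miR-106b correlated with that of miR-25 at a Pearson r of 0.92 and with that of miR-93 at 0.69. That of miR-93 and miR-25 was 0.62. The tested miRNAs whose pattern was most like miR-106b were miR-26b (0.96), miR-107 (0.95) and miR-21 (0.94), with miR-25 at rank 6 of 143 and miR-93 at rank 33. Nearest to miR-25 were miR-21 (0.93), miR-107 (0.91) and miR-467b (0.91), with miR-106b at rank 2. Nearest to miR-93 were miR-500 (0.92), miR-130a (0.86) and miR-24 (0.84), with miR-106b at rank 22 and miR-25 at rank 33. The median r over all other tested miRNAs was between 0.26 and 0.28, and miR-21 is among the most abundant miRNAs of fibroblasts.

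The same seeds are carried by miRNAs of the paralogous miR-17~92 cluster and of its relative on the X chromosome, which are set beside the members here. Of the 6 miRNAs looked up with AAAGUGC, 5 were on the array and 4 were tested, miR-20a and miR-20b besides the members. Of the 6 with AUUGCAC, 6 were on the array and 2 were tested, miR-92a besides miR-25. The sequences of these 3 show the shared seed in capitals.
miR-20a (5p arm, chr14:115044183-115044205, plus strand): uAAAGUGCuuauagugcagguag
miR-20b (5p arm, chrX:52742159-52742181, minus strand): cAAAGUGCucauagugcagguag
miR-92a (3p arm, chr14:115044476-115044496, plus strand): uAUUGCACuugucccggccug
Their differences at 12 h did not pass the test in either genotype. miR-20a differed by -0.35 ± 0.44 in KO cells and 0.11 ± 0.44 in WT cells. miR-20b differed by -0.43 ± 0.47 in KO cells and 0.03 ± 0.47 in WT cells, and miR-92a by -0.01 ± 0.31 in KO cells and 0.18 ± 0.31 in WT cells. These standard errors were larger than the 0.15 to 0.17 of the members.

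Of the 10 paralog cluster miRNAs listed, 9 were on the array and 6 were tested. None of the 6 passed with tunicamycin in either genotype or time, with medians at 12 h of -0.30 in KO cells and 0.19 in WT cells. Between KO and WT cells at 12 h 2 were lower, miR-18a by -1.64 ± 0.35 (adjusted p = 0.0183) and miR-19a by -1.52 ± 0.41 (adjusted p = 0.0373), where 10.3% of all tested miRNAs were lower. miR-106b, in the same comparison, was the member that was higher. The median over the 6 paralogs was -1.45 there, against 0.05 for all tested miRNAs. In untreated KO against WT cells it was already -0.91, against -0.49 for all tested, and 0 of the 6 passed. For the difference between responses at 12 h the paralog median was -0.47, against 0.49 for all tested miRNAs. The difference between paralogs and members was not tested.

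A list of miRNAs linked by earlier work to ER stress had 31 names on the array, of which 19 were tested. In KO cells at 12 h 1 was lower, miR-455, which was well above background on both untreated KO arrays and on 1 of the 2 at 12 h, so that its size rests on the floor and is not given. In WT cells at 12 h 7 of the 19 were lower and 0 higher, with a median of -0.45, near the 30.3% lower and the median of -0.32 over all tested miRNAs. Among these, miR-322 fell by 2.01 ± 0.28 (adjusted p = 0.00271), while miR-222 differed by -1.63 ± 0.35 (adjusted p = 0.0139) and miR-34a, which p53 induces, by -1.36 ± 0.41 (adjusted p = 0.0456). Larger falls than those of the 3 cluster members were therefore seen in other miRNAs of the same arrays. For the difference between responses at 12 h 2 of the 19 were higher in KO cells, miR-322 at 2.12 ± 0.40 (adjusted p = 0.0147) and miR-30e at 0.97 ± 0.25 (adjusted p = 0.0349), against 20.7% of all tested miRNAs. Another 2 of the 19 were lower, against 2.07% of all tested: miR-221 at -1.06 ± 0.30 (adjusted p = 0.0443), and miR-455, whose size again rests on the floor.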

How the data were processed

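Total RNA carried a Cy3 label on Agilent 1-colour miRNA arrays, which were read with Agilent Feature Extraction 10.7.1.1 per the submitters' processing notes. The spot values that the authors deposited are intensity in arbitrary units, corrected for background by that software and left unscaled across arrays. The authors' deposited table holds log2 values, which matched log2(total gene signal) within 1.16e-06 without scaling or centring, and its columns had medians of 5.44 to 6.90. Flags of 0 or 1 fill further columns, per the file headers.

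For each miRNA the mean processed signals of its probes were added up, after spots flagged as outliers had been left out. Scaling used the 75th percentile of the 82 miRNAs measured well above background by all 12 arrays, followed by a floor of 0.0322 and the log2. The software's flag had to be set for 50 percent or more of a probe's spots, and 1 such probe sufficed for a miRNA. Mouse miRNAs that met this on both arrays in 1 group or more (145) entered 1 limma fit (version 3.58.1, R 4.3.3) of the 6 group means, with eBayes moderation on 6 residual degrees of freedom (prior 1.03), Benjamini-Hochberg adjustment, a threshold of 0.05 and 11 comparisons. Precision is limited by the number of arrays. The fit was tested on simulated data.

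The files held no mean signal column, so the normexp alternative used the median signal and median background, with an offset of 50. The text names the 3 members in every comparison, their passenger strands, miRNAs with the same seeds, at most 6 members of the lists of paralog clusters and of ER stress miRNAs, and the 3 tested miRNAs with the most alike pattern for each member. Members and lists were chosen with earlier results of these data known. Alternatives changed background correction, measure, scaling, floor, filter, estimate of the spread and blocks, or left out single arrays.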

Additional observations from a re-analysis of the deposited data

Results flagged for a closer look

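The response of miR-106b to 12 h of tunicamycin differed between KO and WT cells by 1.14 on the log2 scale, and that of miR-25 by 0.88, in the test of the difference itself. Both were marked because that test passed its threshold. Both calls were lost under the other scalings named in the report, with normexp, the total gene signal or the deposited table, and with no filter on dim miRNAs. The log2 ratio of miR-106b to miR-93 within an array was marked for its direction. All 4 KO tunicamycin arrays lay above their untreated mean and all 4 WT tunicamycin arrays below theirs. At 24 h the WT arrays, at -0.03 and -0.13, overlapped with the untreated WT arrays. How many other pairs of miRNAs split in this way was not counted. The KO minus WT difference in this ratio's change was 0.77 at 12 h and 0.46 at 24 h, and it was not tested. At 12 h it was 0.16 with the total gene signal or the deposited table and 0.45 with normexp without outlying spots. At 24 h it was 0.80 and 0.24 under the same alternatives, and 0.23 without the KO array of replicate 1 at 24 h. The opposite directions did not hold throughout: in KO cells the ratio's change turned with the total gene signal, to -1.32 at 12 h and -2.08 at 24 h, and at 24 h with normexp without outlying spots, to -0.058. In WT cells it turned at 24 h with quantile normalization, to 0.0059.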

How the results depend on the processing

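Of 957 single differences recomputed over 29 alternatives, 722 kept their direction and side of the threshold, 141 lost the call, 5 gained it and 89 changed sign. Causes were not tested. The number of members called in WT at 12 h (3) was 0 with median scaling, quantile normalization, the percentile over all miRNAs, both normexp corrections, the deposited table and the total gene signal, 1 unscaled or with only the groups compared, and 2 to 3 leaving out 1 array. In WT at 24 h (2) it was 0 under those scalings and corrections, with the total gene signal, the lower floor, no filter or only miRNAs detected everywhere. It was 1 with the deposited table, the brightest probe, the scan as a block or the trend, 3 with no scaling and 0 to 2 leaving out 1 array. For the KO minus WT response at 12 h (2) it was 0 in all those scalings and corrections, with both deposited measures, with no scaling and with no filter, 1 with the lower floor or the trend, and 0 to 2 leaving out 1 array. The response at 24 h (0) gave 0 to 1 leaving out 1 array, and KO at 24 h (0) gave 2 with no scaling. KO against WT untreated (2) gave 0 in the same settings and with the lower floor, 1 with the trend, the summed total probe signal or only miRNAs detected everywhere, 3 with only the groups compared, and 0 to 2 leaving out 1 array. KO against WT at 12 h (1) gave 0 in the same settings and with the brightest probe, the lower floor, the trend, the scan as a block or only the groups compared, and 0 to 1 leaving out 1 array.

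Changes of sign were as follows, each value a log2 difference, with tunicamycin against untreated cells meant where only a genotype and time are named. The median of all tested miRNAs also moved between alternatives, so a change of sign need not be a change relative to it. For the KO minus WT response at 24 h that median was 0.34 on the main scale and -1.12 with normexp on all spots. With median scaling miR-106b was -0.026 and miR-25 -0.061 in KO at 12 h, -0.20 and -0.031 in KO at 24 h, and miR-93 -0.13 and -0.055 in the KO minus WT response at 12 h and 24 h. With no scaling miR-106b was -0.52 and miR-25 -0.55 in KO at 12 h, -1.10 and -0.92 in KO at 24 h, and miR-93 -0.13 and -0.031 in the KO minus WT responses and 0.0072 for untreated KO against WT. For 24 h against 12 h with no scaling they were -0.31 (miR-93) and -0.37 (miR-25) in KO, and -0.37 (miR-106b), -0.41 (miR-93) and -0.33 (miR-25) in WT. With quantile normalization miR-106b was -0.60 and miR-25 -0.46 in KO at 12 h, -0.69 and -0.44 in KO at 24 h, miR-93 -0.22 in the response at 24 h and -0.087 for KO at 24 h against 12 h, and miR-106b -0.093 for KO against WT at 24 h. With the percentile over all miRNAs miR-106b was -0.58 and miR-25 -0.62 in KO at 12 h, and -0.78 and -0.61 in KO at 24 h. In the responses miR-93 was -0.51 at 12 h, and miR-106b -0.31, miR-93 -0.77 and miR-25 -0.40 at 24 h. KO against WT was then 0.16 (miR-93) and 0.018 (miR-25) untreated, and -0.34 (miR-106b) and -0.38 (miR-25) at 24 h.

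With normexp on all spots miR-106b was -0.30 and miR-25 -0.44 in KO at 12 h, -0.30 and -0.29 in KO at 24 h, and miR-93 0.44 and miR-25 0.27 in WT at 24 h. In the responses miR-93 was -0.45 and miR-25 -0.086 at 12 h, and miR-106b -0.27, miR-93 -0.95 and miR-25 -0.56 at 24 h. KO against WT was 0.045 (miR-106b), 0.44 (miR-93) and 0.26 (miR-25) untreated and -0.23 (miR-106b) and -0.31 (miR-25) at 24 h, and miR-106b was 0.0030 for KO at 24 h against 12 h. With normexp without spots of outlying local background, chosen after seeing the data like the summed total probe signal, miR-93 was 0.018 in KO at 12 h, 0.28 in KO at 24 h, 0.0034 in WT at 24 h and 0.016 for KO against WT at 12 h, and miR-106b 0.0026 for KO at 24 h against 12 h. With the total gene signal miR-93 was 1.47 and 2.02 in KO at 12 h and 24 h, 0.56 and 2.13 in WT, -0.11 in the response at 24 h and 0.58 for KO against WT at 12 h. Under it miR-106b was -0.061 in KO at 24 h, and miR-25 -0.00066 for KO at 24 h against 12 h. With the deposited table miR-93 was 0.84 and 0.98 in KO at 12 h and 24 h, 0.34 and 1.37 in WT, -0.39 in the response at 24 h, and for KO against WT 0.017 untreated and 0.51 at 12 h. Under it miR-106b was -0.48 and miR-25 -0.52 in KO at 12 h, -1.10 and -0.93 in KO at 24 h, miR-25 -0.41 for KO at 24 h against 12 h, and miR-106b -0.38 and miR-25 -0.34 for WT at 24 h against 12 h.

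Leaving out 1 array moved miR-106b between -0.18 and 0.27 in KO at 24 h. KO against WT ran from -0.069 to 0.38 (miR-106b) and -0.034 to 0.27 (miR-25) at 24 h, and from -0.20 to 0.14 (miR-93) at 12 h. KO at 24 h against 12 h ran from -0.35 to 0.097 (miR-106b), -0.032 to 0.31 (miR-93) and -0.073 to 0.23 (miR-25).

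With the replicate number as a block, member counts were 3 in WT at 12 h, 2 in WT at 24 h, 2 in the response at 12 h, 2 for untreated KO against WT and 1 for KO against WT at 12 h, so no count changed. Same-numbered arrays correlated in their deviations over 0.1 in 7 of 15 group pairs, from 0.68 to 0.95, and these were all the pairs that shared a slide and scan. The pairs across slides ran from -0.54 to -0.24, so the numbers were not taken to pair the samples across the design, and the scan as a block is the fit for what arrays of 1 scan share. The slide as a block was not run because each treatment lay on 1 slide. The pooled SD over all tested miRNAs ranged over 0.51 to 1.23 in tunicamycin groups and was 0.13 (KO) and 0.15 (WT) in untreated ones, and signal over background limits miR-93's dimmer probe.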
